A study of Mus musculus with 60 samples.

Results

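The 20 libraries described here are the P14 (postnatal day 14) libraries of a series of 60, grouped by the date written in each library's description, taken here as the collection date. All P14 columns of the series were taken, and they fell into 6 libraries of the date 2_24, 8 of 2_28 and 6 of 3_14. Each date held equal numbers of libraries titled F (female) and M (male), 3 and 3, 4 and 4, and 3 and 3. All 20 were labelled as untreated C57BL/6N mice and as microglia, and the labels name no transgene or deletion. RNA was extracted with Trizol and sequenced from stranded polyA libraries, and the labels give no date effect as a question of the study. The comparison of 3_14 with 2_24 is the main comparison, with 2_28 as the third date. How the microglia were isolated and at what hour is not stated in the labels, and date cannot be told apart from litter, operator or processing day.

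Microglia are the resident macrophages of the brain. In the weeks after birth they stop dividing, spread branched processes and raise a set of receptors and enzymes (P2ry12, Tmem119, Sall1 and others) by which the mature cell is recognised. Isolating cells from brain can switch on immediate early genes such as Fos and heat shock genes such as Hspa1b within the time of the procedure, and carries along RNA of neurons, glia, vessels and choroid plexus. Gene lists were therefore kept apart as maturation, handling and purity lists, and expression is given as CPM, counts scaled to the same total of gene counts in every library.

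Libraries held between 875895 and 3497454 counts, with 13312 to 15610 genes detected. Each description also holds a code that reads as a plate well. Depth followed the column of that code more than the date: the 8 libraries of column 4 had at most 1176546 counts, and the 12 of columns 3 and 5 at least 1762227. All 2_24 libraries lay in column 3, those of 2_28 in columns 3 (F 4 and F 5) and 4, and those of 3_14 in columns 4 (M 8 and M 9) and 5. Mean totals of 3_14 and 2_24 were 2261902 and 2208772, with no difference found by an exact two-sided permutation test within title sex (p = 0.875, smallest possible 0.005 from 400 arrangements). Title and recorded sex agreed in all 20. Xist, transcribed from the inactive X, was at 1770 to 3388 CPM in the libraries titled F and at 2.13 to 14.8 CPM in those titled M. All 30 microglial identity markers passed the filter. Transcripts of other cells were present too and differed between libraries. Ttr, the transthyretin of the choroid plexus, ran from 983 CPM in M 1 (2_24) to 77470 CPM in F 5 (2_28). M 1 had the lowest sum over the choroid plexus list, at 1340 CPM, against 21520 to 53950 CPM in the other 2_24 libraries. F 5 had the highest, at 99280 CPM, and the lowest sum over the identity list, at 24970 CPM. Numbers of called genes without M 1 are given beside some of the results.

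Of 12331 genes tested with edgeR's quasi-likelihood test, 2874 (23.3%) differed between any of the dates at a Benjamini-Hochberg adjusted p under 0.05. Between 3_14 and 2_24, 393 genes (3.19%) were higher and 492 (3.99%) lower on 3_14. Of these, 33 were at least 2-fold higher and 253 at least 2-fold lower. Without M 1 the numbers were 627 and 1230, with plate column as a covariate 13 and 0, and with the summed purity lists as a covariate 193 and 218. With the summed immediate early and heat shock lists as a covariate both were 0. These sums did not overlap between 3_14 and 2_24, so the covariate and the date carry nearly the same information. No plate column held libraries of both 2_24 and 3_14, so the fit with plate column compared them only through 2_28 libraries. In most libraries choroid plexus transcripts made up most of the purity sum. On 2_24 the median was 35180 CPM for the choroid plexus list, 2790 for the endothelial, 384 for the oligodendrocyte and 105 for the neuron list. The purity covariate thus followed mainly choroid plexus RNA. Between 2_28 and 2_24, 66 genes (0.535%) were higher and 114 (0.924%) lower. Between 3_14 and 2_28, 1628 (13.2%) were higher and 1858 (15.1%) lower. Scaling by library totals alone moved the share of higher genes among those called from 36.7% to 54.6% for 2_28 against 2_24 and from 46.7% to 24.4% for 3_14 against 2_28, with medians of all genes at 0.12 and -0.18 on the log2 scale. These comparisons share libraries, so their values are set side by side. Of the 8 largest rises from 2_24 to 3_14 among genes of at least 10 CPM, 4 were heat shock genes (Hspa1b, Hspa1a, Hsph1 and Hspb1), and of the 8 largest falls, 4 were on the oligodendrocyte list (Ugt8a, Gpr17, Bcas1 and Olig1) and 1 on the neuron list (Dcx).

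**Figure D1:**
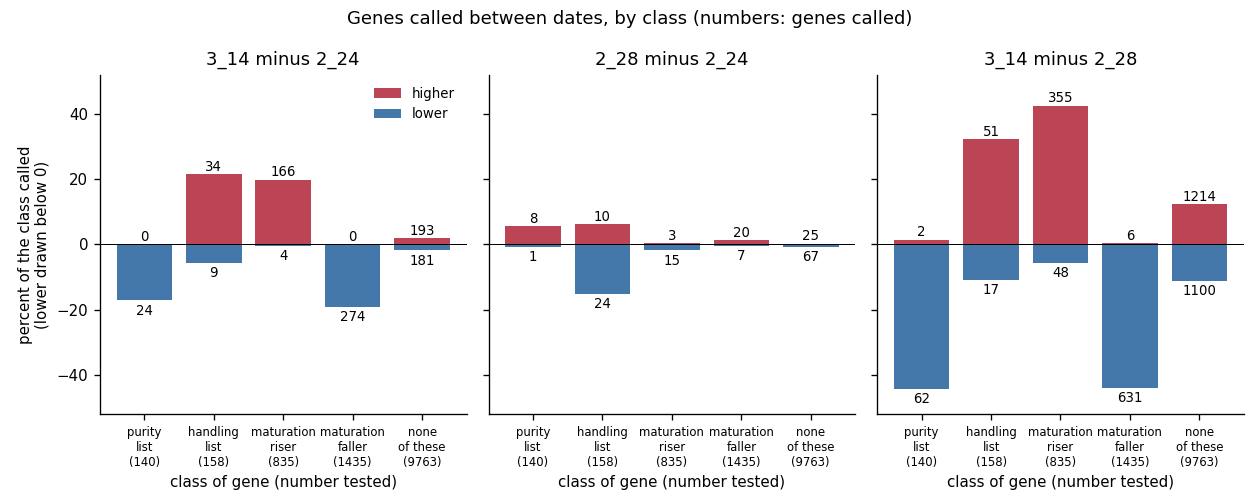
Percent of each class of gene called higher (above 0) or lower (below 0) between each pair of dates, with the number of genes called at each bar and the number tested under each class. Purity-list genes and maturation fallers were called almost only lower on 3_14, and maturation risers mostly higher.

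Of the 140 purity-list genes tested, 24 were lower on 3_14 than on 2_24 (17.1%, against 3.99% of all genes) and 0 higher. Of the 158 handling-list genes, 34 were higher (21.5%, against 3.19% of all genes) and 9 lower (5.70%, against 3.99%). Together the purity and handling lists held 34 of the 393 higher and 33 of the 492 lower genes. Most called genes lay on neither kind of list, and so did most of the 12331 genes tested.

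Heat shock genes separated 2_24 from both later dates. These genes code for chaperones, which hold or refold damaged proteins, and their helpers. Of 19 listed, all passed the filter, and 14 were higher on 3_14 than on 2_24 with 0 lower, against 3.19% of all genes higher. On 2_28, 10 of the 19 were higher than on 2_24 and 0 lower, against 0.535% of all genes. Between 3_14 and 2_28, 3 were higher and 1 lower, against 13.2% and 15.1% of all genes. The median log2 difference of the list was 0.72 for 3_14 and 0.67 for 2_28 against 2_24, where the median of all genes was -0.01 and 0.03.

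Hspa1b, an inducible HSP70 chaperone, was at 41.4 CPM in the lowest, 83.9 in the median and 170 in the highest 2_24 library. It was at 510, 541 and 798 CPM on 2_28 and at 572, 652 and 776 CPM on 3_14. No 2_24 library overlapped either later date. The log2 difference from 2_24 was 2.91 ± 0.20 (SE) on 3_14 (edgeR adjusted p = 1.21e-09) and 2.57 ± 0.19 on 2_28 (adjusted p = 7.34e-09). Between the later dates it was 0.34 ± 0.17 (adjusted p = 0.134). Its neighbour Hspa1a, a near-identical copy whose reads the authors' counting could have split, differed by 2.77 ± 0.21 on 3_14. Hsph1, an HSP110 chaperone that recharges HSP70, was at 70.9 to 212 CPM on 2_24, 400 to 667 on 2_28 and 461 to 691 on 3_14. Its log2 difference was 1.99 ± 0.17 on 3_14 (adjusted p = 3.01e-08) and 1.8 on 2_28. Hspb1, the small chaperone HSP27, was at 11.8 to 28.1 CPM on 2_24, 33.1 to 112 on 2_28 and 38 to 66.3 on 3_14. It was higher by 1.38 ± 0.25 on 3_14 (adjusted p = 0.00202) and by 1.79 on 2_28. Hsp90aa1, the inducible HSP90, and Dnajb1, a J-domain partner of HSP70, were higher on 3_14 by 1.15 and 0.92. The mitochondrial chaperonin pair Hspd1 and Hspe1 was higher by 0.85 and 0.81 on 3_14, and by 0.82 and 1.03 on 2_28. Hspa4l (-0.52) and Cryab (-0.51) did not pass the test.

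Summed over the list, heat shock transcripts were at 4046 to 5052 CPM on 2_24, 6654 to 9605 on 2_28 and 7553 to 8916 on 3_14. Within plate column 3 the 2_28 libraries F 4 and F 5 were at 7446 and 6654 CPM, above all 6 libraries of 2_24. M 1, with the lowest choroid plexus sum, was at 5052 CPM. With plate column as a covariate 5 of the 19 genes were called higher on 3_14, and with the summed purity lists 13. Without M 1, 14 were higher and 1 lower.

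**Figure D2:**
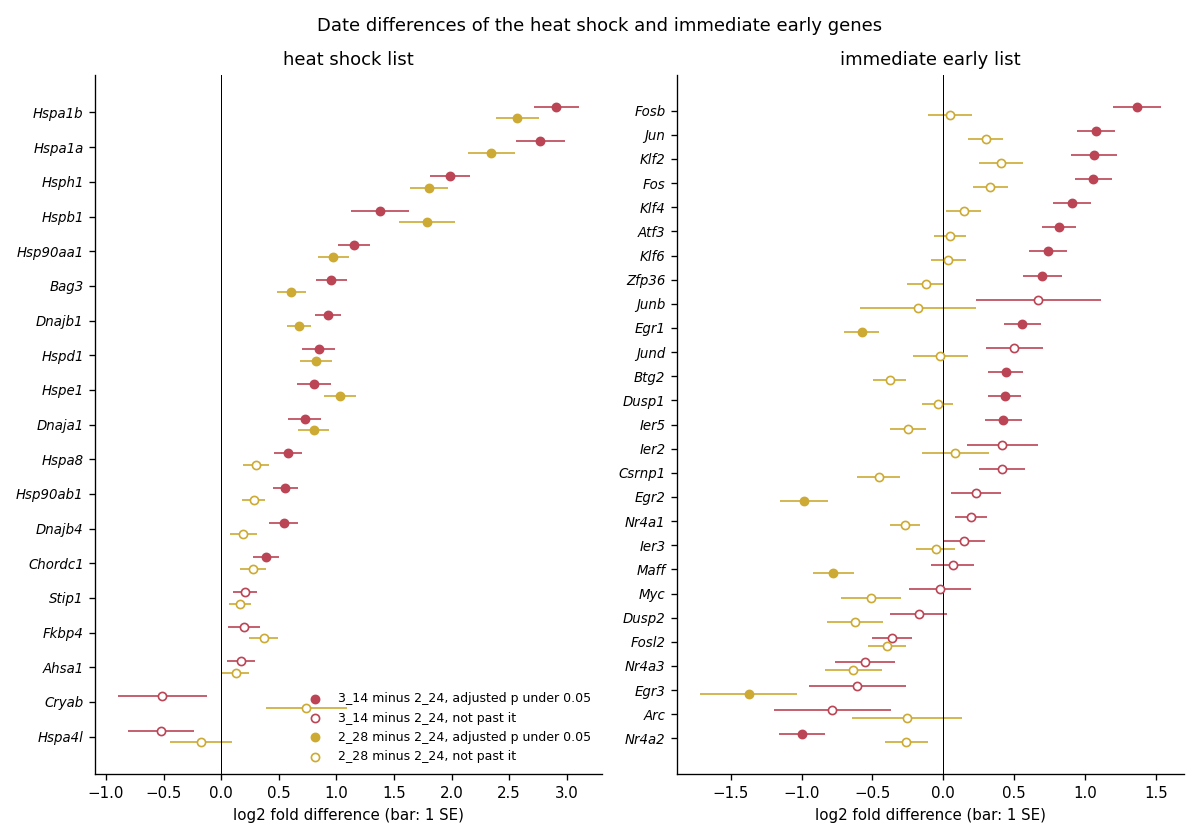
Log2 difference from 2_24 of each tested heat shock gene (left) and immediate early gene (right) on 3_14 (red) and 2_28 (yellow), with 1 SE; filled points passed an adjusted p of 0.05. Heat shock genes such as Hspa1b were displaced on both later dates, while Fosb, Jun and Fos were displaced on 3_14 and close to 0 or not past the test on 2_28.

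The sequences upstream of 3 of the displaced heat shock genes and of Fos are shown because heat shock genes are induced through the heat shock element, to which the factor HSF1 binds. They end at the base before the RefSeq transcription start (build GRCm38.p6; the counts were made on mm9). Capitals mark matches to TTCNNGAA or GAANNTTC, each of which reads the same on both strands and may overlap the other.
Hspa1b (chr17:34959239-34959398, minus strand): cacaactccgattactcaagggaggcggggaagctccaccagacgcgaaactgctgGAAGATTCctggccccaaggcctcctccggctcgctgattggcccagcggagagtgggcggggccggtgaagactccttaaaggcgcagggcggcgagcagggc
Hspa1a (chr17:34972157-34972316, minus strand): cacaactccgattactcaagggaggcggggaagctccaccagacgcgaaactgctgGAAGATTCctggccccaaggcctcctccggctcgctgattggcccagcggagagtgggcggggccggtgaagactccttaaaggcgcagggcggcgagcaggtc
Hspb1 (chr5:135887759-135887918, plus strand): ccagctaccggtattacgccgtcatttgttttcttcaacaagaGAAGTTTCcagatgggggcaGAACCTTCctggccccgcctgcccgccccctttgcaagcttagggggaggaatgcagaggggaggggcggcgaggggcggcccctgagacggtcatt
Fos (chr12:85473730-85473889, plus strand): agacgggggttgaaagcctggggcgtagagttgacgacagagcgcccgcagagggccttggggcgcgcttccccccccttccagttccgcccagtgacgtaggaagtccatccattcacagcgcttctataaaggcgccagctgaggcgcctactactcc
The Hspa1b and Hspa1a sequences were identical at 159 of 160 bases. In the 250 bases before the start, 9 of the 15 heat shock genes with an entry held a match (60%), against 3 of 22 immediate early genes (13.6%) and 14.5% of all 27025 genes with an entry. A match is a description of the letters and not a site.

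Immediate early genes separated 3_14 from both earlier dates. These genes are transcribed within minutes of a stimulus, most of them as transcription factors. Of 27 listed and tested, 12 were higher and 1 lower on 3_14 than on 2_24, against 3.19% and 3.99% of all genes. On 2_28, 0 were higher and 4 lower than on 2_24, against 0.535% and 0.924%. Against 2_28, 17 were higher and 1 lower on 3_14, where 13.2% and 15.1% of all genes were called.

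Fosb, an AP-1 subunit, was at 576, 760 and 917 CPM in the lowest, median and highest 2_24 library, at 548, 890 and 1166 on 2_28 and at 1597, 1815 and 2205 on 3_14. Every 3_14 library was above every other, and the earlier dates overlapped. It was higher on 3_14 than on 2_24 by 1.37 ± 0.17 (adjusted p = 1.19e-05), and differed by 0.05 between 2_28 and 2_24 (adjusted p = 0.919). Jun, the partner of the Fos proteins, was at 503 to 685 CPM on 2_24, 617 to 998 on 2_28 and 981 to 1451 on 3_14, a log2 difference of 1.08 ± 0.13 on 3_14. Fos itself was at 626 to 926, 833 to 1262 and 1245 to 1800 CPM, and was higher by 1.06 ± 0.13. The factor Atf3, at 2452 to 3095, 2127 to 3805 and 4454 to 5159 CPM, was higher by 0.82. Klf2, Klf4 and Klf6, zinc finger factors, were higher by 1.06, 0.91 and 0.74, and Zfp36, which speeds the decay of cytokine messages, by 0.70. Nr4a2, an orphan nuclear receptor of the same list, fell by 1.0 on the log2 scale (adjusted p = 0.000581), from 35 to 55 CPM on 2_24 to 17.2 to 27.2 on 3_14. The genes lower on 2_28 than on 2_24 were Egr1, Egr2, Egr3 and Maff, by -0.58, -0.98, -1.37 and -0.78. Egr3 (adjusted p = 0.0489) was not called in 16 of the 20 fits that left out 1 library, and without F 4 the list had 10 lower.

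The summed immediate early level was 13160 to 15100 CPM on 2_24, 11800 to 16990 on 2_28 and 19880 to 24990 on 3_14. Within plate column 4 the 3_14 libraries M 8 and M 9 were at 23480 and 21900 CPM, above the 13070 to 16690 of the 6 libraries of 2_28. M 1 was at 14840 CPM. With plate column as a covariate 1 of the 27 genes was called higher on 3_14, and with the purity lists 8.

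Part of the inflammatory list was lower on 2_28. Of 22 listed cytokine and chemokine genes, 20 passed the filter. On 2_28, 9 were lower than on 2_24 and 0 higher, against 0.924% and 0.535% of all genes, and without M 6 the 9 became 5. On 3_14, 8 were higher and 1 lower than on 2_28, against 13.2% and 15.1%. Between 3_14 and 2_24, 1 was higher (Ccrl2, a chemokine-binding receptor, by 0.59) and 3 lower, and Ccrl2 was not called without F 8, F 9, M 2, M 3 or M 8. Il1a, the cytokine interleukin-1 alpha, was at 1183 to 2585 CPM on 2_24, 641 to 1059 on 2_28 and 1024 to 1742 on 3_14, lower by -1.0 on 2_28 (adjusted p = 0.000701). Tnf, another cytokine, was at 132 to 200.3, 70.9 to 123 and 126 to 187 CPM, lower by -0.89 on 2_28. Plau, the plasminogen activator urokinase, had the smallest adjusted p of the falls named for 2_28, at 552 to 1067, 208 to 356 and 339 to 481 CPM. It differed from 2_24 by -1.49 on 2_28 (adjusted p = 3.08e-07) and by -0.78 on 3_14. The 3_14 libraries were lower than 2_24 in the chemokines Cxcl1 (-0.96) and Ccl7 (-0.75) and in Ptgs2 (-0.86), the inducible cyclooxygenase. The summed list in M 1, 10810 CPM, was the highest of the 20.

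Of 21 tested NF-kB feedback genes, 1 was higher on 3_14 than on 2_24, against 3.19% of all genes, and 5 were lower on 2_28, against 0.924%. The 5 became 1 without M 1 or M 6, 3 without F 5, M 2, M 3, M 4 or M 7, 8 without F 3 and 9 without F 4. The 1 higher was Tnfaip3, a ubiquitin-editing brake on NF-kB, at 758 to 925 CPM on 2_24, 524 to 1044 on 2_28 and 1392 to 1887 on 3_14 (0.93 ± 0.13, adjusted p = 0.000146). Of 17 genes of the glucocorticoid and metallothionein list, 3 were higher on 3_14 and 1 lower, against 3.19% and 3.99% of all genes. Tsc22d3 (GILZ), Sgk1 and Per1, which glucocorticoids induce, differed by 0.86, 0.53 and 0.69, and Klf9, also induced by them, by -0.88. Of 20 hypoxia and glycolysis genes, Hk2 (0.80) and P4ha1 (0.39) were higher on 3_14, against 3.19% of all genes. Adm, Egln3 and Vegfa were lower, by -1.23, -1.69 and -0.98, against 3.99%. The 3 lower became 0 without F 3 and 1 without F 9, and the 2 higher became 1 without F 3, F 8, F 9, M 2, M 9 or M 10. Of 18 tested genes of the unfolded protein list, 0 were called between 3_14 and 2_24 (2 higher and 3 lower at an unadjusted p under 0.05, and 1 lower by DESeq2). Without M 1, 1 was higher and 2 lower, and 1 was lower without F 2, F 4 or M 8. Of 17 circadian genes 2 were higher, Per1 and Gm129 (0.76), and 1 lower, Bhlhe40 (-0.69), against 3.19% and 3.99% of all genes. The 2 higher became 1 without F 3 or M 2 and 0 without F 9.

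**Figure D3:**
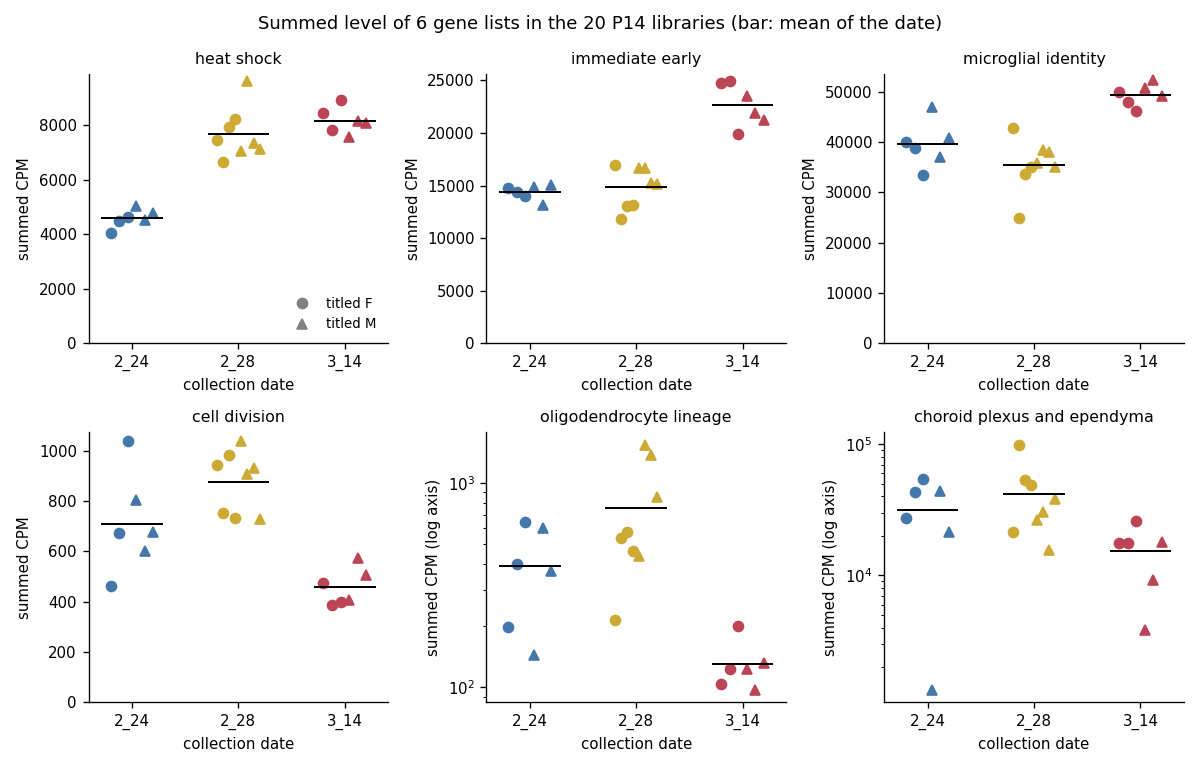
Summed CPM of 6 gene lists in each of the 20 P14 libraries by collection date, with circles for libraries titled F, triangles for M and a bar at the mean; the lower middle and lower right panels have log axes. Heat shock is low only on 2_24, immediate early genes are high only on 3_14, and the choroid plexus sum runs from 1340 CPM (M 1) to 99280 CPM (F 5).

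Of the purity lists, the oligodendrocyte list had the most members lower on 3_14. In bulk libraries fewer cells of a type and less RNA per cell cannot be told apart. Of 18 oligodendrocyte lineage markers 17 passed the filter, and 8 were lower on 3_14 than on 2_24 and 0 higher, against 3.99% and 3.19% of all genes, with a median of -2.22 against -0.01 over all genes. Against 2_28, 16 of the 17 were lower on 3_14, where 15.1% of all genes were lower. Gpr17, a receptor of newly forming oligodendrocytes, was at 8.16, 67.5 and 89.4 CPM in the lowest, median and highest 2_24 library, 21.8, 78.8 and 174 on 2_28, and 0.286, 2.43 and 12.1 on 3_14. The lowest 2_24 library was below the highest of 3_14. It differed by -3.75 ± 0.77 between 3_14 and 2_24 (adjusted p = 0.00804). Ugt8a, an enzyme of myelin lipid synthesis, differed by -4.07, Bcas1 by -3.40 and Olig1, a lineage factor, by -3.25. Outside the lists, Tnr (-3.67), Lhfpl3 (-3.03) and Gria2 (-2.98) were among the 8 largest falls of genes with a mean of at least 10 CPM on either date.

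Of 18 neuron markers 9 passed the filter, and 2 were lower on 3_14 and 0 higher, against 3.99% and 3.19% of all genes. Dcx, a microtubule protein of young neurons, was at 6.94 to 28.6 CPM on 2_24, 13.4 to 94.2 on 2_28 and 0.572 to 3.44 on 3_14, without overlap (-3.17 ± 0.46, adjusted p = 0.000293). The other was Tubb3 (-2.31). Of 15 astrocyte markers Sox9 (-1.21) and Fabp7 (-2.22) were lower, against 3.99% of all genes. Fabp7 (adjusted p = 0.047) was not called in 13 of the 20 fits that left out 1 library. Endothelial markers were lower in 6 of 18, against the same share of all genes, led by Itm2a at 200.3 to 327 CPM on 2_24 and 122 to 169 on 3_14 (-0.85 ± 0.15), and by Kdr, the main VEGF receptor (-0.69). The 6 became 2 without M 3 or M 8 and 3 without F 2, F 3, F 8, F 9, M 2, M 6, M 7 or M 9. Mural and fibroblast markers were lower in 3 of 16, against 3.99% of all genes, among them the pericyte gene Rgs5 (-0.76). The monocyte list gave 1 of 11 lower, Vcan, a matrix proteoglycan (-2.44), against 3.99% of all genes. The border macrophage list gave 2 of 14 lower, Dab2 (-0.45) and Colec12 (-0.67), against the same share of all genes. The 2 became 1 without F 2, F 3 or F 8 and 0 without F 9, M 2, M 3, M 8 or M 9. Mrc1, the mannose receptor of border macrophages, differed by 0.06 and did not pass the test.

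No gene of the choroid plexus list (15 tested), the red blood cell list (6), the neutrophil list (16) or the lymphocyte list (3) was called between 3_14 and 2_24 by edgeR. By DESeq2 1 neutrophil gene was lower and none of the others called, and at an unadjusted p under 0.05 4, 0, 3 and 0 genes were lower and 0, 0, 1 and 2 higher. The choroid plexus list had a median of -0.89. Without M 1, 8 of its genes were lower, the oligodendrocyte list gave 11, the astrocyte list 8 and the neuron list 6, of 12 then tested, and the mural list 5. Also without M 1, 1 lymphocyte gene was higher. The oligodendrocyte list had 4 without F 8 and 5 without F 3. The astrocyte list had 0 without F 3 and 1 without F 2, F 5, F 6, F 8, F 9, M 2, M 3, M 4, M 6, M 8, M 9 or M 10. The neuron list had 1 without F 2, F 3, F 8, M 3, M 8 or M 9 and 4 without F 10. With the summed neural lists as a covariate, an alternative chosen after the data were seen, 141 genes of the whole table were higher and 179 lower on 3_14.

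**Figure D4:**
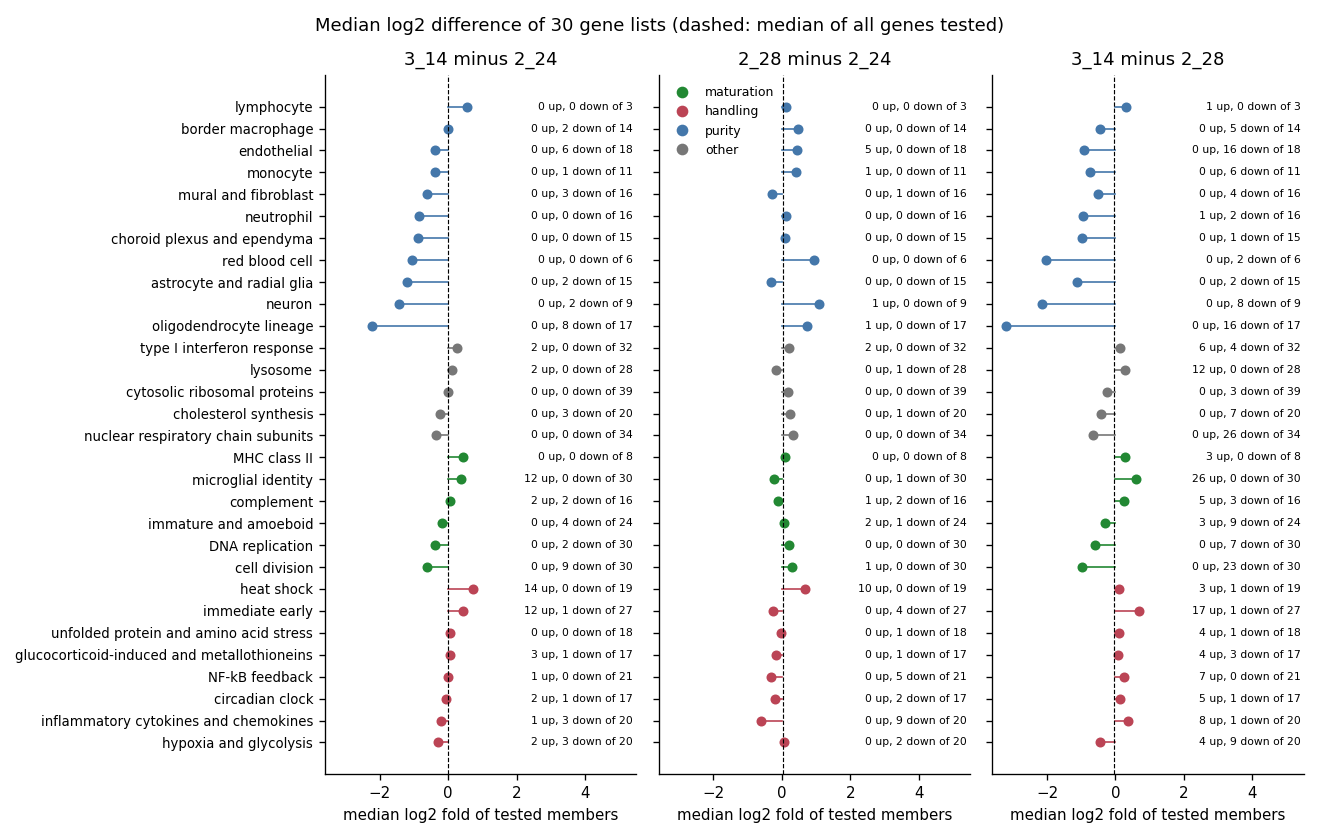
Median log2 difference of the tested members of 30 gene lists for each pair of dates, coloured by kind of list, with the number of members called up and down beside each; the dashed line is the median of all genes tested. The oligodendrocyte list is farthest from 0 in both comparisons of 3_14 (-2.22 and -3.21), and heat shock is the handling list farthest above 0 in both comparisons with 2_24.

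Some microglial identity genes were higher on 3_14. Of 30 tested, 12 were higher and 0 lower than on 2_24, against 3.19% and 3.99% of all genes, with a median of 0.38. Against 2_28, 26 were higher on 3_14, where 13.2% of all genes were higher. On 2_28, 0 were higher and 1 lower than on 2_24, against 0.535% and 0.924% of all genes. Sall1, the factor that sets microglial identity, was at 319, 404 and 426 CPM in the lowest, median and highest 2_24 library, 254, 365 and 557 on 2_28, and 578, 663 and 697 on 3_14. All 3_14 libraries were above all others, and it differed from 2_24 by 0.81 ± 0.14 (adjusted p = 0.00127). P2ry13, a nucleotide receptor, was at 576 to 912, 515 to 815 and 932 to 1246 CPM (0.68 ± 0.13, adjusted p = 0.00185). Gpr165, an orphan receptor, was higher by 0.92, Tmem119, a surface marker of microglia, by 0.84, Slc2a5, a fructose transporter, by 0.62 and Cx3cr1, the fractalkine receptor, by 0.61. Siglech (0.23) and Sparc (0.07) did not pass the test. The summed list was at 33500 to 46960 CPM on 2_24, 24970 to 42790 on 2_28 and 46090 to 52240 on 3_14. M 1, the highest of 2_24, lay within the range of 3_14. Of the 140 purity-list genes, 24 were lower on the same date. With the purity lists as a covariate 5 of the 30 were called, with the neural lists 3 and with plate column 0. The 12 became 19 without M 1, 6 without F 3 or M 2 and 7 without F 8 or F 9.

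Some genes of cell division were lower on 3_14. Of 30 tested, 9 were lower than on 2_24 and 0 higher, against 3.99% and 3.19% of all genes, with a median of -0.61. Against 2_28, 23 were lower on 3_14, where 15.1% of all genes were lower. Top2a, which untangles replicated DNA, was at 64.1, 79.6 and 140.0 CPM on 2_24, 83.9, 99.8 and 107 on 2_28, and 40.7, 50.8 and 74.2 on 3_14, so that 3_14 lay below all of 2_28 and overlapped the low end of 2_24. It differed by -0.67 ± 0.15 (adjusted p = 0.00766). Ccna2, a cyclin of S phase and early mitosis, differed by -0.90, the mitotic kinase Aurkb by -1.31 and the kinetochore protein Nuf2 by -1.14. Mki67 (-0.62, adjusted p = 0.064) did not pass the test. Of 30 DNA replication genes Rrm1 (-0.53) and Rrm2 (-1.08), the subunits of ribonucleotide reductase, were lower, against 3.99% of all genes. The 2 became 0 without F 2, F 3, F 8 or F 9 and 1 without F 10, M 2, M 3, M 8 or M 10. M 1, for which the list summed to 803 CPM, was above every 3_14 library (387 to 573 CPM), and the list was at 461 to 1038 CPM on 2_24 and 730 to 1041 on 2_28. With the purity lists as a covariate 10 genes were lower, with the neural lists 3 and with plate column 0. The number became 4 without F 3 and 5 without F 2, F 8, F 9 or F 10, and was 6 without M 1.

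Of 24 genes of immature and amoeboid microglia, 4 were lower on 3_14 than on 2_24 and 0 higher, against 3.99% and 3.19% of all genes. They were Anxa2 (-0.68) and Anxa5 (-0.47), annexins, Tmsb10 (-0.80) and Igf1, a growth factor (-0.64). Igf1 was not called in 15 of the 20 fits that left out 1 library, and the 4 became 1 without F 3, F 8, F 9, M 3 or M 9 and 2 without F 2 or M 8. Of 16 complement genes, Itgam (0.51) and Itgb2 (0.50), the chains of complement receptor CR3, were higher, against 3.19% of all genes. Cd93 (-0.62) and C5ar1 (-0.49) were lower, against 3.99%. The 2 higher became 0 without F 2, F 3, F 9 or M 9 and 1 without F 8, M 2, M 3 or M 8, and C5ar1 was not called in 10 of the 20 fits that left out 1 library. Of 8 tested MHC class II genes 0 were called by either edgeR or DESeq2, with 2 higher at an unadjusted p under 0.05 and a median of 0.42. Without F 1, F 4 or M 1, 1 was higher.

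For a direction of maturation from outside P14, the 8 P4 and 12 P60 saline libraries were compared: 985 genes (7.64% of those tested) were at least 2-fold higher at P60 and 1847 (14.3%) at least 2-fold lower. Leaving out genes of the purity and handling lists gave 927 risers and 1754 fallers, of which 835 and 1435 were also tested at P14. Between 3_14 and 2_24, 166 of the 835 risers were higher (19.9%) and 4 lower, against 3.19% and 3.99% of all genes. Of the 1435 fallers, 274 were lower (19.1%) and 0 higher. Between 2_28 and 2_24, 3 risers were higher (0.3593%) and 15 lower (1.796%), and 20 fallers were higher (1.394%) and 7 lower (0.4878%). Of all genes, 0.535% were higher and 0.924% lower on 2_28, so the shares of risers higher and of fallers lower were below those of all genes. Between 3_14 and 2_28, 355 risers were higher (42.51%) and 48 lower (5.749%), and 631 fallers were lower (43.97%) and 6 higher (0.4181%). Of all genes, 13.2% were higher and 15.1% lower in that comparison.

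Tppp, a tubulin-binding protein, led the risers with 45.4 to 64.3 CPM on 2_24, 48.6 to 108 on 2_28 and 116 to 164 on 3_14 (1.41 ± 0.15, adjusted p = 7.6e-07). Txnip, an arrestin that binds thioredoxin, was at 1029 to 1218, 994 to 1602 and 2075 to 2694 CPM (1.06 ± 0.12). Both were without overlap between 3_14 and the earlier dates. Il16, a cytokine, was higher by 1.34. Risers that were lower on 3_14 were Aspn (-1.40), Scd1 (-1.50), Lims2 (-0.89) and Ly6a (-0.52), the last not called in 12 of the 20 fits that left out 1 library. Among fallers, the secreted growth factor Ptn was at 80.5 to 130.0 CPM on 2_24, 69.5 to 187 on 2_28 and 27.2 to 62.9 on 3_14 (-1.19 ± 0.21). Lama2 and Nid1, components of basement membranes, differed by -1.29 and -0.87, and Frem2, a matrix protein, by -1.08. The clock-regulated gene Ccrn4l differed by -0.87. Risers and fallers leave out only the listed purity and handling genes, so RNA of other cells can remain among them. Which cells the transcripts named here came from was not tested.

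A maturation index, the mean log2(CPM + 2) of all risers minus that of all fallers, ran from -0.48 to 0.32 at P4 and from 2.60 to 3.28 at P60 with saline, the libraries that defined it. It was 1.05 to 1.81 on 2_24, with a median of 1.44, and 1.17 to 1.61 on 2_28, with a median of 1.32. On 3_14 it was 2.04 to 2.23, with a median of 2.12. The 3_14 libraries lay above all others of P14 and below all of P60, and the earlier dates overlapped. M 1, with the lowest choroid plexus sum, was the highest of the earlier dates at 1.81.

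**Figure D5:**
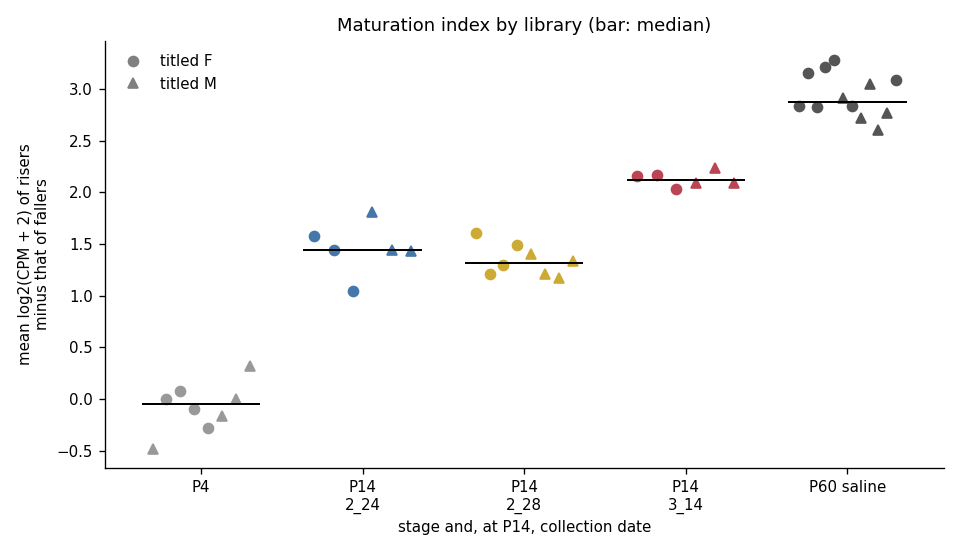
Maturation index of each library at P4, on each P14 collection date and at P60 with saline, with circles for F, triangles for M and a bar at the median; P4 and P60 defined the index. The 6 libraries of 3_14 sit between 2.04 and 2.23, above the 1.81 of the highest earlier library.

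In an alternative chosen after the data were seen, genes were removed whose deviations within date and sex followed the neural, endothelial or choroid plexus lists (a correlation of at least 0.5 over the 20 libraries). This left 664 risers, of which 162 were higher on 3_14 than on 2_24 (24.4%) and 1 lower, and 714 fallers, of which 56 were lower (7.84%) and 0 higher. The index over the remaining genes was 1.36 to 1.89 on 2_24, 1.30 to 1.64 on 2_28 and 2.25 to 2.38 on 3_14. Only positive correlations counted, so genes whose levels ran opposite to the neural, endothelial or choroid plexus lists were kept. The other purity lists, such as the mural and fibroblast list, were not used. Any part of purity in the remaining genes was not tested. Genes of the handling lists were left out of the index, and any part of handling in the other genes was not tested.

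Respiratory chain subunits carry out oxidative phosphorylation in mitochondria. Of 34 nuclear-encoded respiratory chain subunits 0 were called between 3_14 and 2_24, with a median of -0.35 (14 lower at an unadjusted p under 0.05, and 7 by DESeq2), and 26 were lower on 3_14 than on 2_28, against 15.1% of all genes. Against 2_24, 9 were lower without F 4, 8 without M 1 and 4 without F 5. Of 20 cholesterol synthesis genes 3 were lower on 3_14 than on 2_24, against 3.99% of all genes, and 5 without F 1, F 4 or M 1. The 3 were Cyp51 (-0.79), Sqle (-1.0) and Sc4mol (-0.57). Of 28 lysosomal genes Ctsd (0.37) and Man2b1 (0.39) were higher, against 3.19% of all genes, and 12 were higher than on 2_28, against 13.2%. The 2 became 0 without F 2, F 3, F 8, F 9, M 2, M 3, M 8, M 9 or M 10 and 1 without F 1. Of 32 interferon response genes Mx2 (0.75) and Ddx58 (0.49) were higher, against 3.19% of all genes. These 2 became 0 without F 3, F 8, F 9 or M 2, 1 without M 9, 4 without M 3 and 5 without F 4. Of 39 cytosolic ribosomal protein genes 0 were called between 3_14 and 2_24 by edgeR or DESeq2, with 1 lower at an unadjusted p under 0.05. Outside the lists, the rises included Adra2a, an adrenergic receptor, from 1.14 to 6.61 CPM on 2_24 to 8.50 to 15.5 on 3_14 (2.01 ± 0.39), and the uncharacterised AI467606 (1.49).

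The date difference was also taken within each sex, from a joint fit of all 20 libraries. No library enters both differences, but the sexes share the scaling, the estimate of spread and the dates themselves. Among libraries titled F, 194 genes (1.57%) differed between 3_14 and 2_24, and among those titled M, 52 (0.422%), with 30 called in both. Of the 194, 189 (97.4%) had the same direction in M, against 66% of genes not called in F. Hspa1b was higher on 3_14 by 2.89 ± 0.29 in F and 2.94 ± 0.30 in M.

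The test of the difference between the sexes called 1 gene of 12331 (0.00811%), with 483 at an unadjusted p under 0.05. It was Kifc3, a kinesin that moves toward microtubule minus ends. In F it was at 36.9, 27.7 and 29.5 CPM on 2_24 and 12.9, 19.5 and 14.2 on 3_14. In M it was at 11.8, 13.3 and 14.5 CPM on 2_24 and 32.3, 24.4 and 25 on 3_14. The sexes were ordered oppositely on these dates without overlap. On 2_28 F was at 26.3 to 35.2 CPM and M at 16.3 to 22.5, the order of 2_24. The difference was 1.99 ± 0.33 on the log2 scale (adjusted p = 0.0383), and it did not pass the threshold in 13 of the 20 fits that left out 1 library.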

How the data were processed

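The authors deposited integer read counts per transcript for 60 libraries, and the 20 of P14 were analysed. Per the submitters' processing notes, CASAVA 1.8.2, the mm9 genome and edgeR were used; which aligner and counter were run is not given in the sources used here. That deposited table holds 28644 transcript rows for 22869 gene symbols. The row marked as best was used, or, for 881 unmarked symbols, the row of highest total. Groups were read from title and description; nothing in the labels says that tubes were separate animals, so p-values measure only the spread between these samples, which may be technical. No pair of libraries of the same date and title sex agreed within sampling noise, and other pairs were not checked.

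Genes were filtered by filterByExpr over the 6 groups of date by sex, scaled by TMM and tested in R 4.3.3 with edgeR 4.0.16 (robust quasi-likelihood, two-sided), with date and title sex as terms and Benjamini-Hochberg adjustment over all 12331 genes, called at 0.05. The spread of all 20 libraries enters every comparison. Standard errors follow from the F statistic. The fit was tested on simulated data. The date groups, gene lists and members were chosen with earlier results of these data known. Aliases placed 5 listed symbols in the table.

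Genes were named by a rule: the 8 largest rises and falls of at least 10 CPM (4 for the other pairs of dates), up to 4 called genes per list with up to 2 against them, the 2 most abundant of each purity list, 5 risers and fallers of smallest p each way, and genes called by sex. Other listed genes given with values (Il1a, Tnf, Tmem119, Cx3cr1, the Klf, Egr and chaperone genes among them) were added to describe their list after their values were seen. Not every gene picked this way is reported here. Promoter sequences are RefSeq's. Alternatives were DESeq2 1.42.0, other scalings, filters, rows and libraries, thinned counts, and covariates. Few counts limit the precision of genes of low CPM.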

Additional observations from a re-analysis of the deposited data

Results flagged for a closer look

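In 16 of the 150 groups looked at (10.7%), 1 library stood apart from the rest of its date by Dixon's criterion. Chance meets it in about 1 in 20 groups of normally distributed values. CPM values were used without a log scale and some groups share genes, so the 10.7% cannot be read as an excess. No cause was tested.

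F 5 of 2_28 had the highest choroid plexus sum, 99280 CPM against 15670 to 53230 in the other 7, the highest Ttr, 77470 CPM against 12220 to 36690, and the highest red blood cell sum, 605.6 CPM against 7.45 to 87.9. F 10 of 3_14 had the highest neuron sum, 58.09 CPM against 24.6 to 36.8, the highest oligodendrocyte sum, 200.1 CPM against 96.8 to 131, the highest Gpr17, 12.05 CPM against 0.286 to 4.09, and the lowest Sall1, 577.5 CPM against 655 to 697. M 6 of 2_28 had the highest Dcx, 94.15 CPM against 13.4 to 48.2.

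M 1 of 2_24 had the highest inflammatory sum, 10810 CPM against 6473 to 8016. MHC class II was highest in F 1 of 2_24, 518.1 CPM against 319 to 364, and in M 9 of 3_14, 677.1 CPM against 394 to 498. The neutrophil sum was highest in M 8 of 3_14, 956.2 CPM against 510 to 633. The interferon response sum was highest in M 3 of 2_24, 1040 CPM against 731 to 828, and the cholesterol synthesis sum in F 3 of 2_24, 947.3 CPM against 693 to 786. Hspa1b was highest in M 5 of 2_28, 798.2 CPM against 510 to 615, and Txnip in F 8 of 3_14, 2694 CPM against 2075 to 2286.

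The date difference of Kifc3 differed between the sexes, by 1.99 on the log2 scale (M minus F), in edgeR's test of that difference.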

How the results depend on the processing

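Numbers are genes higher and lower. For 3_14 against 2_24 (393 and 492) they were 491 and 753 with DESeq2, 702 and 579 with only these dates, 250 and 196 with counts thinned to the smallest total, 141 and 179 with the neural covariate, 193 and 218 with purity, 13 and 0 with plate column and 0 and 0 with the immediate early and heat shock covariate. A replicate block over 12 libraries gave 722 and 875; numbers do not pair these libraries (correlations of -0.16 to 0.32 between same-numbered libraries). For 2_28 against 2_24 (66 and 114) they were 126 and 261 with DESeq2, 108 and 90 with library totals, 27 and 56 with only these dates, 6 and 2 with plate column, 209 and 370 with the immediate early and heat shock covariate, and 174 lower without a filter and 193 lower at 10 CPM. For 3_14 against 2_28 (1628 and 1858) they were 917 and 2841 with library totals, 1026 and 1028 thinned, 571 and 431 with plate column, 311 and 351 with purity, 198 and 233 with neural lists and 1 and 0 with immediate early and heat shock lists. Any date difference (2874) became 1595, 418, 748, 653 and 1027 under thinning, plate column, purity, neural and immediate early with heat shock. Date by sex gave 2 with DESeq2 and 0 thinned or with plate column. The cause of these changes was not tested.

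Leaving out 1 library gave 234 to 627 higher and 198 to 1230 lower for 3_14 against 2_24, 34 to 285 and 49 to 650 for 2_28 against 2_24, 1255 to 2186 and 1368 to 2406 for 3_14 against 2_28, 2088 to 3994 for any date and 0 to 2 by sex. For 3_14 against 2_24 a number moved by over 1.5 times without M 1 (627 and 1230), F 4 (760 lower), F 2 (267 lower), F 3 (248 and 198), F 8 (243 and 225), F 9 (234 and 225), M 2 (245 and 285), M 3 (237 lower), M 8 (313 lower) or M 9 (271 lower). For 2_28 against 2_24 it did so without F 4 (285 and 650), F 3 (151 and 344), F 1 (41 and 65), F 5 (43 and 69), F 7 (106 higher), M 1 (40 and 57), M 2 (34 and 66), M 3 (42 and 63), M 6 (41 and 49) or M 7 (64 lower).

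With a 4-fold reference 31.9% of risers were higher on 3_14 than on 2_24, and on 2_28 0% of risers were higher and 0% of fallers lower. Without genes tied to other cells these were 0% and 0.98% on 2_28, and 7.84% (against 2_24) and 26.8% (against 2_28) of fallers were lower on 3_14. With E18 as reference 0.25% of fallers were lower on 2_28.

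With the immediate early and heat shock covariate the sign turned for Fosb (-0.15), Hk2 (-0.27), Sall1 (-0.30), Slc2a5 (-0.23), Anxa5 (0.084), Itgb2 (-0.32), Itgam (-0.28), Cd93 (0.074), Atf3 (-0.18), Cxcl1 (0.0175), Ptgs2 (0.22), Ccrl2 (-0.31), Tnfaip3 (-0.29), Tsc22d3 (-0.079), Sgk1 (-0.0305), Per1 (-0.23), Vegfa (0.34), P4ha1 (-0.094), Bhlhe40 (0.59), Itm2a (0.083), Colec12 (0.21), Ctsd (-0.092), Man2b1 (-0.0279), Il16 (-0.41) and Ly6a (0.12), and with plate column for Ptgs2 (0.048) and P4ha1 (-0.025). Counts of under 10 CPM in the shallow libraries limit the precision of single genes.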

Other observations

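Compared with 2_24, endothelial markers were higher on 2_28 in 5 of 18, against 0.535% of all genes, among them the tight junction protein Cldn5 (log2 difference 0.82), Ly6c1 (0.83) and Egfl7 (0.86), and the 5 became 1 without M 2, 2 without F 5, M 1 or M 6, 3 without F 1, M 3, M 4 or M 7, 8 without F 3 or M 5 and 10 without F 4. Of the NF-kB feedback genes, Nfkbiz (-0.79) and Rel (-0.70), an NF-kB subunit, were lower. Of the immature list, the intermediate filament Vim (0.81) and Crip1 (0.98) were higher and Csf1, a growth factor of macrophages (-0.84), lower. Of the interferon response list, Ifitm3 (0.88) and Bst2 (0.58) were higher, and 1 to 3 genes of the list when 1 library was left out. Slc7a11, the cystine transporter, was lower (-1.14).

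Between 3_14 and 2_28, 5 of 14 border macrophage markers were lower on 3_14, against 15.1% of all genes, including Lyve1 (-0.83), Cbr2 (-0.91) and Folr2, a folate receptor (-0.91). Of 8 MHC class II genes, H2-DMa (0.52), H2-DMb1 (0.85) and H2-Ob (0.54) were higher, against 13.2% of all genes. These genes were chosen after their values were seen.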
